A study of Mus musculus with 221 samples.

Results

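The potassium channel family was taken as every feature whose symbol begins with Kcn, then lower case letters and a number. Of the 23244 features, 94 met this rule, without regard to their levels. The family was followed in 221 single cells from the medial neocortex, microdissected from embryos of the C57BL/6J mouse strain, labelled female, at the embryonic stage E18.5, shortly before birth. The cells came from 2 pools, medCor1 (pool 1) and medCor2 (pool 2, 99 cells), each a suspension of neocortices from 8 embryos. No group was treated and no allele was changed, so the comparisons are between cell classes within the same pools. The embryos of a pool cannot be told apart, and the pool was the replicate (n = 2).

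Potassium channels let potassium leave a cell along its gradient, which sets the resting potential and ends each action potential. Voltage-gated pores (Kv families) open on depolarization, inward rectifiers (Kir) and two-pore-domain channels (K2P) carry current near rest, and calcium-activated pores (BK and SK) link the current to calcium. Auxiliary subunits, such as the single-span KCNE proteins and the calcium-binding KChIP proteins, have no pore and change how the pores open or reach the membrane. In the developing cortex, radial glia (the neural stem cells) rest at a strongly negative potential with leak and inward rectifier currents, while Kv currents grow as neurons mature. Interneurons, the inhibitory neurons that migrate in from the ventral forebrain, later use Kv3 channels for fast firing.

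Values are TPM (transcript abundance scaled to a fixed total per cell) as deposited. No value is 0: features without signal share the lowest value of their cell, called the floor (1.33 to 2.998 TPM, median 1.83), and a gene counted as detected above it. Read numbers are not known, so a gene at the floor may have been missed. The housekeeping genes Hprt and Tbp, for instance, were above the floor in 154 and 133 of the 221 cells. Cells were grouped on marker genes, none of them a channel gene. The class named radial glia-like (RG-like) held 22 cells (12 in pool 1 and 10 in pool 2), intermediate progenitor-like (IP-like) 8 (3 and 5), newborn neuron-like (NB-like) 47 (31 and 16) and interneuron-like (IN-like) 27 (16 and 11). The largest class, excitatory neuron-like (EN-like), held 60 cells of pool 1 and 44 of pool 2, and 13 cells took no class. Cell names end in a letter A or B, the suffix, whose meaning the labels do not give. RG-like cells had suffix A in 18 of 22 cases, and EN-like cells in 62 cases against 42 with suffix B. In pools 1 and 2, IP-like cells had suffix A in 2 of 3 and 5 of 5 cases. The counts were 14 of 31 and 11 of 16 for NB-like cells, and 3 of 16 and 8 of 11 for IN-like cells. Class and suffix thus cannot be told apart in full in any comparison, those of IP-like and IN-like cells included. All 12 radial glia markers were above the floor in at least 50% of the RG-like cells, but transcripts of neurons were present too: the excitatory neuron gene Neurod6 reached 100 TPM in 13 of the 22. The same held for 7 of 8 IP-like and 13 of 27 IN-like cells.

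Of the 94 channel genes, 64 rose above the floor somewhere and 33 in 10 cells or more, the minimum for testing. Another 31 appeared in 1 to 9 cells, and 30 lay at the floor in every cell. Just inside the minimum, with 10 cells each, were Kcna1, Kcnab3 and Kcnq3 among others, and just outside was Kcnq5 with 9. A cell had a median of 5 channel genes above the floor (0 to 16). The class medians lay close together: 5.5 in RG-like, 5 in IP-like, NB-like and EN-like, and 4 in IN-like cells. The median number of genes of any kind above the floor was 4767 in RG-like, 4486.5 in IP-like and 4052 in EN-like cells. It was 3880 in NB-like and 3468 in IN-like cells. The channel genes' median share of these was 0.1195% in RG-like, 0.1046% in IP-like and 0.1334% in EN-like cells. It was 0.1296% in NB-like and 0.1323% in IN-like cells, so the order by count was not kept. Shares of cells above the floor were not corrected for the number of genes detected.

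The families were covered unevenly. All 4 KChIP genes were above the floor somewhere, and 2 (Kcnip1 and Kcnip3) were tested. Of the 5 KCNE genes, by contrast, only Kcne1l was above the floor in any cell. All 10 silent modifier Kv subunits (Kcnf, Kcng, Kcns and Kcnv genes), which need another Kv subunit to form a channel, stayed below the minimum. The inward rectifiers had 3 of 15 genes tested and the K2P channels 3 of 14. The voltage-gated KCNH group (eag, erg and elk channels) had 4 of 8, KCNQ 3 of 5, Kv1 2 of 8, Kv2 2 of 2, Kv3 3 of 4 and Kv4 2 of 3. The SK and IK group had 2 of 4, the BK beta subunits 2 of 4 and the Kv1 beta subunits 2 of 3. The BK pore Kcnma1 and Kcnq1ot1, a long antisense RNA within Kcnq1 and no channel, completed the 33. Kcnq1 itself, the best known partner of KCNE proteins, was at the floor in all cells.

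**Figure D1:**
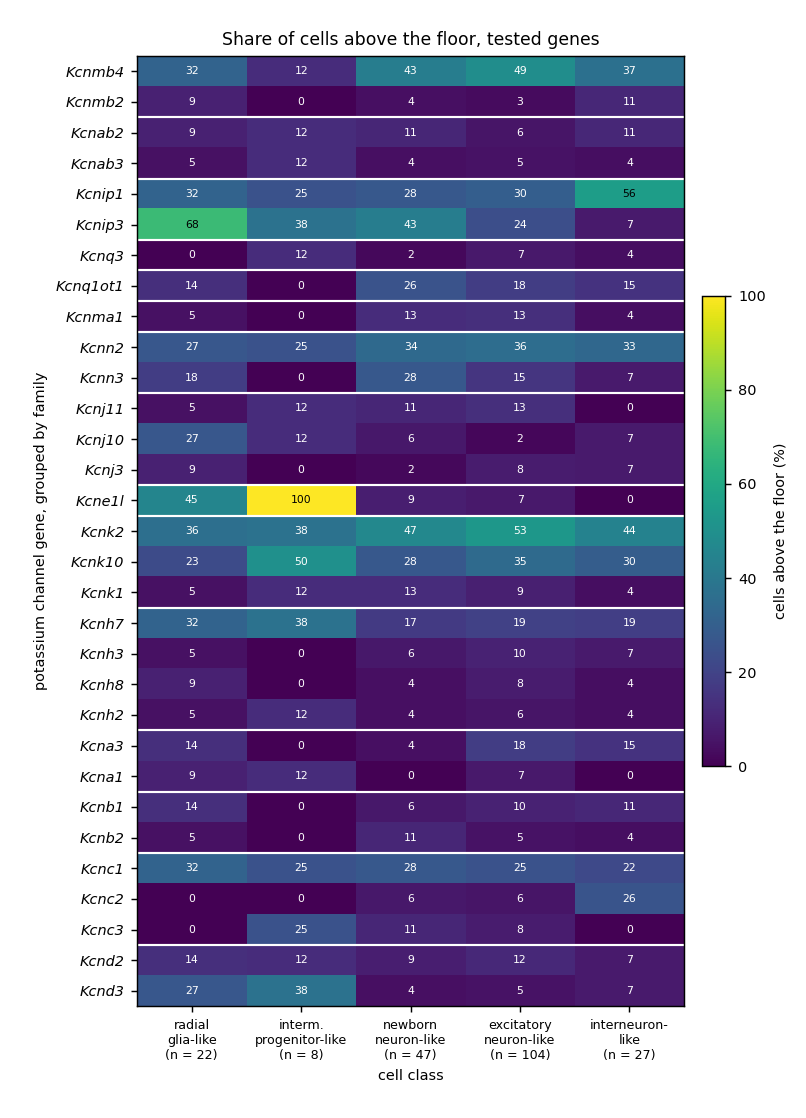
Share of cells above the floor (percent, colour and printed number) for tested channel genes (separated by family) in the 5 classes (columns, with their number of cells). Kcne1l reached 100% of IP-like cells, Kcnip3 was most frequent in RG-like cells, and Kcnip1 was above the floor in 15 of 27 IN-like cells.

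Promoters of 4 genes that differed between classes in the tests below are given from RefSeq (GRCm38.p6). They are shown because these genes lead the results. Each is 300 bases, from 250 before to 50 after the start nearest to the gene's annotated 5′ end, 5′ to 3′ on the strand of the gene. Capitals mark E-boxes (CANNTG), the motif bound by basic helix-loop-helix proteins such as the proneural factors.
Kcne1l: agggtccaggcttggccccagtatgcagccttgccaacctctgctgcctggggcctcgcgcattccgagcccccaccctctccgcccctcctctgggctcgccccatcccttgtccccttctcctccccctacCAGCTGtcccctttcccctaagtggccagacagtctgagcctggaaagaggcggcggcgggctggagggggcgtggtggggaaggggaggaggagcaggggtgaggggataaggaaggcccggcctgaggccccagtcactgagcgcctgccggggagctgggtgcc
Kcnip3: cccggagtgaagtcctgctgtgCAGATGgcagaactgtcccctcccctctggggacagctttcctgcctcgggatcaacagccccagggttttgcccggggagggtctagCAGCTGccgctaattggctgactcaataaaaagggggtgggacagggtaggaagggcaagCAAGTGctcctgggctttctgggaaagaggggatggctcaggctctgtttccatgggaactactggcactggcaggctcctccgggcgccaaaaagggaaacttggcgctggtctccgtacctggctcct
Kcnip1: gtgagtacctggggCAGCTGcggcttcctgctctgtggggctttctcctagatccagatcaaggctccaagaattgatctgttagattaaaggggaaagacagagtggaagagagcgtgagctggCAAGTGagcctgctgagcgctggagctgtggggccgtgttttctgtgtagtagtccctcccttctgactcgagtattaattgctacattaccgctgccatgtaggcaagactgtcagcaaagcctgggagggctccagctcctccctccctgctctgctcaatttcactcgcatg
Kcnc2: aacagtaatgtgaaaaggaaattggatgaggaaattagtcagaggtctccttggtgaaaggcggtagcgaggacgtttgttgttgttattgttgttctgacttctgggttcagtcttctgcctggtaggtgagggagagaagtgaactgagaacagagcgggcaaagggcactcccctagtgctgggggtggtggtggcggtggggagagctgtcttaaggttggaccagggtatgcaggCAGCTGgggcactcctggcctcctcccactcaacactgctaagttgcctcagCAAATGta

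The Kcne1l window is chrX:142306149-142306448 (minus strand) and holds 1 E-box and 1 GC box (GGGCGG). The Kcnip3 window is chr2:127522045-127522344 (minus strand), with 3 E-boxes and 2 matches to TGGGAA, the core bound by the Notch effector Rbpj. The Kcnip1 window, chr11:33993144-33993443 (minus strand), and the Kcnc2 window, chr10:112270871-112271170 (plus strand), hold 2 E-boxes each. Both strands were searched, and no 2 matches overlap. E-boxes are common: 72.3% of the 32851 promoters in the table hold at least 1, TGGGAA occurs in 25.6% and the GC box in 35.7%. The homeodomain core TAATTA and the TATA box TATAAA had no match in these 4 windows, against 5.29% and 13.6% of all promoters. A match describes the letters only. The genes lie in GRCm38 on chromosome X from 142304752 to 142306294 (Kcne1l, minus strand), chromosome 2 from 127456498 to 127522094 (Kcnip3, minus strand), chromosome 11 from 33629339 to 33993152 (Kcnip1, minus strand) and chromosome 10 from 112271121 to 112467024 (Kcnc2, plus strand). The libraries carry no strand, so reads of Kcnip1 cannot be told apart from those of the overlapping Kcnmb1, Gm12119, Gm12120 and 4930469K13Rik where they overlap. Kcnmb1 itself was listed at the floor in all cells. No annotated gene overlaps Kcne1l or Kcnc2.

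RG-like against EN-like cells asks which channels mark the stem cells rather than their main product. Kcne1l, a single-span beta subunit of the KCNE family (Kcne5 in newer naming), was the 1 channel gene that passed, and it was higher in RG-like cells. Of the 22 RG-like cells 10 had it above the floor (45.5%; exact 95% interval 24.4 to 67.8%), with 1.40 TPM as the lowest, 2.02 as the median and 323 as the highest value. Where it was above the floor its median was 155 TPM. Of the EN-like cells 7 were above the floor (6.73%, 2.75 to 13.4%), with a median of 1.85 TPM and a highest value of 231 TPM. The cells thus mostly either had Kcne1l well above the floor or lay at it, and the classes differed in how many did.

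The mean of Kcne1l over RG-like cells was 68.9 TPM in pool 1 and 89.8 TPM in pool 2, against 12.6 and 1.78 TPM in EN-like cells. The difference had the same direction in both pools. Limma tested, for each class and pool, the mean of log2(TPM + 1), a scale that understates changes of low genes. The log2 difference was 2.35 ± 0.34 (standard error, SE; adjusted p = 0.00276; 2.27 and 2.44 in the pools). A gene was called where its adjusted p over all genes tested was below 0.05 and its log2 difference 1 or more in size. Of the 10688 genes 5.74% were called (4.37% with the higher level in RG-like cells and 1.37% with the lower). The 33 tested channel genes had 1 call, and 8 at an unadjusted p below 0.05, with 4 in each direction. Over all 10688 genes, 2126 had such a p, 1314 higher and 812 lower in RG-like cells, a similar share. Their median log2 difference was -0.16, against 0.02 for all genes.

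The p-values measure the spread between these 2 pools, and they do not cover the choice of classes, which were formed from the same cells. All 10 RG-like cells with Kcne1l above the floor had suffix A, 10 of 18 against 0 of 4 with suffix B, too few cells to bound the share closely. With pool and suffix as units the difference was 1.34 and did not pass (adjusted p = 0.210), and within suffix A alone it was 2.73 (adjusted p = 0.0528). It also missed the threshold with the log2 of the mean TPM (3.69, adjusted p = 0.0635), with each cell assigned to its highest marker score (1.26, adjusted p = 0.0826), and when the small IP-like profiles joined the fit (2.35, adjusted p = 0.0547).

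Kcnip3 encodes a KChIP protein, also known as calsenilin or DREAM, that binds calcium, Kv4 pores and presenilins. It lay above the floor in 15 of 22 RG-like cells (68.2%, 45.1 to 86.1%; 10 of 12 in pool 1 and 5 of 10 in pool 2). Values ran from 1.56 to 393 TPM with a median of 62.9 TPM. In EN-like cells it lay above the floor in 25 (24.04%, 16.2 to 33.4%), with a median of 1.91 and a highest value of 524 TPM. The RG-like median lay well above the floor and the excitatory one at it, but single neurons reached higher values than any RG-like cell. The log2 difference of 2.01 ± 0.56 did not pass (adjusted p = 0.0534; 2.60 and 1.43 in the pools). With the pool as a block it did (adjusted p = 0.0493).

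Of the 2 tested Kv4 pores, which KChIP proteins join, and the glial inward rectifier none passed. Kcnd3, a Kv4 pore, was above the floor in 6 of 22 RG-like cells and 4.81% of EN-like cells, with highest values of 88.7 and 54.1 TPM and a log2 difference of 0.73 ± 0.22 (adjusted p = 0.0759). Kcnd2, the other Kv4 pore, was above the floor in 3 of 22 RG-like and 11.5% of EN-like cells, with -0.06 ± 0.26 (adjusted p = 0.927). Kcnd2 and Kcnj10 were named after their values were seen. Kcnj10, the Kir channel typical of mature astroglia, was above the floor in 6 of 22 (highest 47.6 TPM; all 6 with suffix A) against 1.92% of EN-like cells, with 0.62 ± 0.19 (adjusted p = 0.0804). With 14 cells above the floor in the whole series, Kcnj10 met the minimum of 10 only with the RG-like cells counted. The filter was thus not independent of its difference. The summed level of vessel mural cell markers had a median of 83.7 TPM (13.96 to 496) in RG-like against 18.9 TPM (13.3 to 675) in EN-like cells, with Acta2 and Anpep, 2 of the 10 listed, at the floor everywhere. The list did not move as a whole: Myl9 was above the floor in 9 of 22 RG-like and 7 EN-like cells, but Rgs5 in 0 and 6 and Pdgfrb in none of either, and no mural marker reached 50% of the RG-like cells. The summed level of 6 oligodendrocyte precursor markers, of which Gpr17 was at the floor everywhere, had a median of 87.5 TPM (9.13 to 2232) in RG-like against 11.2 TPM (7.99 to 351) in EN-like cells. Both sums count a marker at the floor with its floor value, and the EN-like medians lie near sums of floor values alone. No marker of either list was above the floor in 50% of the EN-like cells. The part of mural cells and oligodendrocyte precursors in the differences was not tested.

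**Figure D2:**
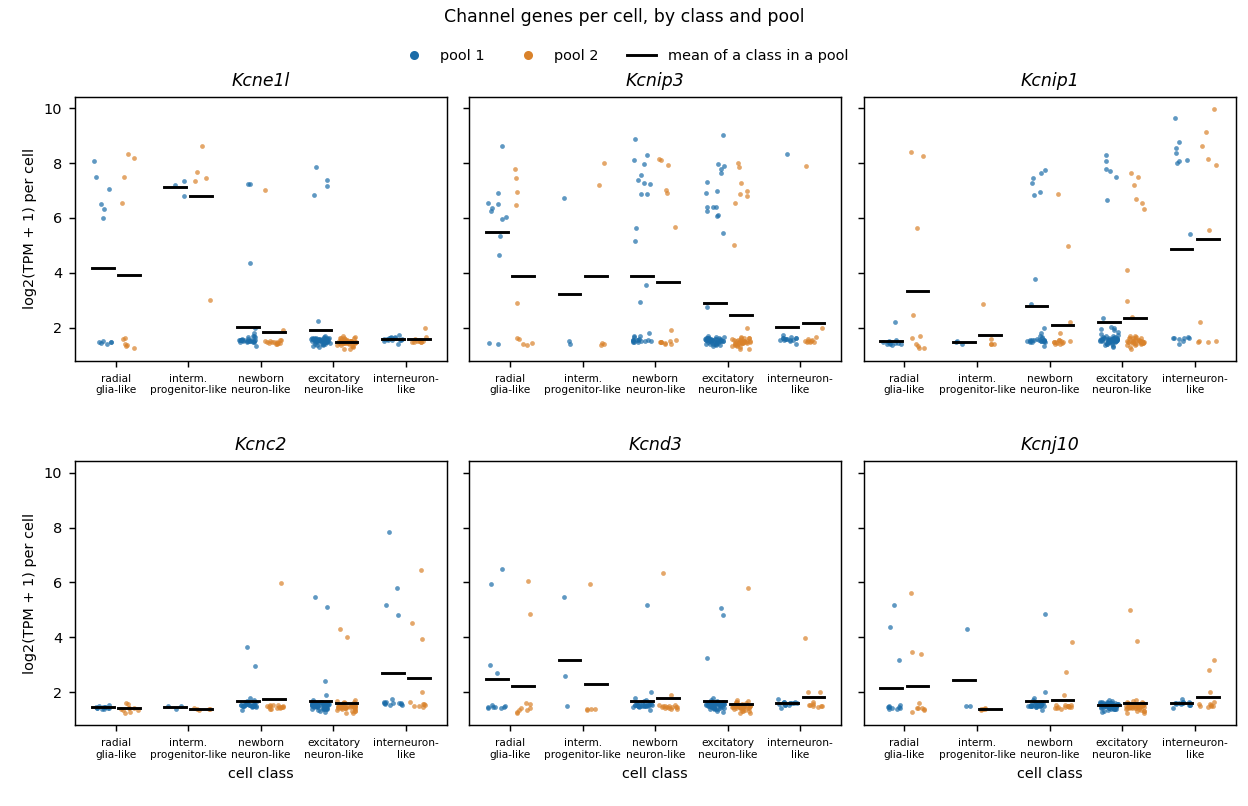
Log2(TPM + 1) of 6 channel genes in every cell of the 5 classes, by pool (blue pool 1, orange pool 2). Black bars are the mean of a class in a pool. Kcne1l was above the floor in all 8 IP-like cells and in 10 of 22 RG-like cells, and Kcnc2 was at the floor in both of these classes.

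Intermediate progenitors are the dividing daughters of radial glia that give rise to excitatory neurons. Kcne1l was above the floor in all 8 of these cells (exact 95% interval 63.1 to 100%), with a median of 161 TPM. In pool 1 the 3 cells had 111.2, 145 and 162 TPM, and in pool 2 the 5 cells had 7.04, 160, 173, 202 and 394 TPM. Only the cell at 7.04 TPM lay below 100 TPM. No other channel gene was above the floor in more than 4 of the 8 cells. Kcne1l was among the 10 genes that led this cluster, although no channel gene was used to form it. The IP-like cells also held radial glia markers, 11 of 12 in at least 50% of the cells. The sum of these markers, floor values included, had a median of 7580 TPM, against 24206 TPM in RG-like and 425 TPM in EN-like cells. The log2 difference was 5.27 ± 0.51 against EN-like cells (limma, adjusted p = 0.00317; 5.20 and 5.34 in the pools). It was 2.92 ± 0.51 against RG-like cells (adjusted p = 0.0350; 2.93 and 2.90). Both comparisons share the IP-like cells. They needed a minimum of 3 cells per class and pool, in place of 4, chosen after the cell numbers were seen.

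In both comparisons Kcne1l was the 1 called gene of the 33. Over all genes 2.17% were called against EN-like cells (1.68% higher and 0.487% lower) and 0.505% against RG-like cells (0.178% higher and 0.327% lower). The channel genes' median log2 differences were -0.19 and -0.05, against 0.09 and 0.03 for all genes. Kcnc2 was at the floor in 8 of 8 cells, which allows a share of up to 37.5%. Kcnk10, a mechanosensitive K2P channel, was above the floor in 4 of 8 cells, at 40.5 to 255 TPM, against 5 of 22 RG-like cells. Its log2 difference to these was 1.69 ± 0.60 and did not pass (adjusted p = 0.202). Kcnd3 was above the floor in 3 of 8 cells and Kcnip3 in 3 of 8. Kcnh7, an erg-type pore, also had 3 of 8, against 7 of 22 RG-like cells and 19.2% of EN-like cells. The difference of Kcne1l from RG-like cells depended on the processing: it missed the threshold with the pool as a block (2.92, adjusted p = 0.0507), with profiles weighted by cells (2.87, adjusted p = 0.593) and without cells with globin of 100 TPM or more (2.61, adjusted p = 0.0701). With each cell assigned to its highest marker score the sign turned (-0.27, adjusted p = 0.863), and the difference from EN-like cells fell to 0.99 (adjusted p = 0.971).

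Eomes is the transcription factor that defines intermediate progenitors and was 1 of the markers that formed the IP-like class. Across all cells Kcne1l was above the floor in 13 of 36 cells with Eomes and in 16 of 185 without. The NB-like class joined clusters of 30 and 17 cells. The 10 leading genes of the smaller cluster held 2 newborn neuron markers and 2 intermediate progenitor markers, Eomes and Mfng. In NB-like cells Kcne1l was above the floor in 4 of 16 cells with Eomes and in 0 of 31 without it. Both transcripts thus came together in the 8 IP-like and 4 NB-like cells. The RG-like class differed: 9 of its 10 cells with Kcne1l had Eomes at the floor, and of its 4 cells with Eomes 1 had Kcne1l. The 7 EN-like cells with Kcne1l all had Eomes at the floor. These counts describe single cells of 2 pools, and no test was made on them.

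**Figure D3:**
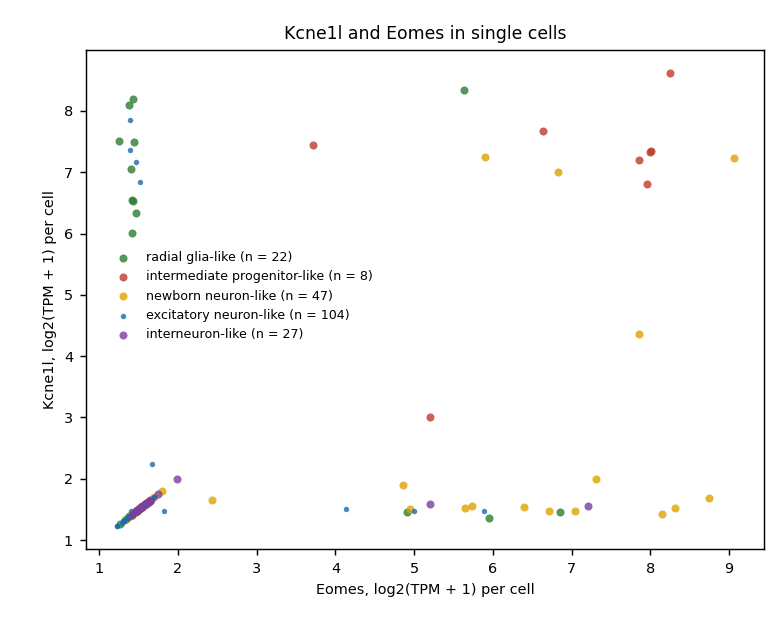
Kcne1l against Eomes, both as log2(TPM + 1) per cell, coloured by class. Points on the lower left diagonal have both genes at the floor of their cell. The 8 IP-like cells have both above the floor, while 9 of the 10 RG-like cells with Kcne1l have no Eomes.

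IN-like against EN-like cells asks which channels separate inhibitory from excitatory neurons before birth. Limma called 0 of the 33 channel genes, against 0.58% of all genes (0.29% in each direction), and 2 had an unadjusted p below 0.05, both higher in IN-like cells. Over all 10688 genes, 871 had such a p, 304 higher and 567 lower in IN-like cells, so the channel genes' share was no larger. The channel genes' median log2 difference was 0.02, against -0.04 for all genes. The leading gene was Kcnip1, the KChIP protein known from cortical interneurons. It was above the floor in 15 of 27 IN-like cells (55.6%, 35.3 to 74.5%), from 1.66 to 1011 TPM with a median of 42.1 TPM, and 12 cells had 100 TPM or more. Of the EN-like cells 31 lay above the floor (29.8%, 21.2 to 39.6%), with a median of 1.94 and a highest value of 310 TPM. The pool means were 175 and 232 TPM against 23.2 and 20.2 TPM. The log2 difference of 2.76 ± 0.58 missed the threshold (adjusted p = 0.0555; 2.65 and 2.88 in the pools).

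Kcnip1 was uneven within the IN-like class, which joined 2 clusters. The cluster of 7 cells led by Npas1, Htr3a and Adarb2, genes of interneurons from the caudal ganglionic eminence, had it in 5 of 7 cells with a median of 333 TPM. The cluster of 20 cells with Lhx6 and Nxph1, genes of interneurons from the medial ganglionic eminence, had it in 10 of 20 cells with a median of 2.88 TPM and a highest value of 436 TPM. Kcnip1 was itself among the 10 leading genes of the smaller cluster. Without those 7 cells the log2 difference was 1.96 (adjusted p = 0.302). Kcnip1 passed under 7 of the 22 alternatives, among them weighting by cells (2.74, adjusted p = 0.00451) and pool and suffix as units (3.38, adjusted p = 0.00675).

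Kcnc2, a Kv3 pore of fast-spiking interneurons, was the second gene. It was above the floor in 7 of 27 IN-like cells (25.9%, 11.1 to 46.3%; 4 of 16 in pool 1 and 3 of 11 in pool 2), at 14.4 to 230 TPM with 35.5 TPM as their median. EN-like cells had it in 6 cells (5.77%, 2.15 to 12.1%), up to 43.1 TPM, and NB-like cells in 3 of 47. Its log2 difference was 0.97 ± 0.21 (adjusted p = 0.0555), which missed both limits. Of the 7 cells, 6 were in the Lhx6 cluster and 1 in the Npas1 cluster. Kcnc1, another Kv3 gene (56 of 221 cells), was above the floor in 6 of 27 IN-like cells and 26 EN-like cells, and had a log2 difference of 0.55 ± 0.43 (adjusted p = 0.843; -0.08 and 1.19 in the pools).

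RG-like against IN-like cells gave the most calls, 5 of the 33 channel genes, beside 7.45% of all genes (5.75% with the higher level in RG-like cells and 1.69% with the lower). Of those described here, Kcne1l and Kcnip3 were higher, and Kcnip1 and Kcnc2 lower, in RG-like cells. This comparison shares its classes with those above. The median log2 difference of the channel genes was -0.15, against 0.08 for all genes. Kcne1l was above the floor in 0 of 27 IN-like cells, which allows a share of up to 11.1%, and its log2 difference was 2.47 ± 0.34 (adjusted p = 0.00139). Kcnip3 was above the floor in 2 of 27, at 236 and 320 TPM, with 2.62 ± 0.56 (adjusted p = 0.0138; 3.49 and 1.75 in the pools).

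Of the lower genes, Kcnc2 was at the floor in all 22 RG-like cells, which allows a share of up to 13.6%. Its log2 difference was -1.17 ± 0.21 (adjusted p = 0.00517; -1.24 and -1.11 in the pools). Kcnip1 was above the floor in 7 of 22 RG-like cells, 2 of 12 in pool 1 (mean 1.89 TPM) and 5 of 10 in pool 2 (mean 70.6 TPM), with a highest value of 340 TPM. Its difference was -2.62 ± 0.58 (adjusted p = 0.0166; -3.34 and -1.90 in the pools). The call of Kcnip1 was lost without the 7 cells of the Npas1 cluster (-1.82, adjusted p = 0.0974) and without cells with globin of 100 TPM or more (-1.90, adjusted p = 0.101). Kcnip3 lost its call in 4 of 22 alternatives (adjusted p up to 0.0809), and Kcnc2 in 5 of 21 (log2 difference as small as -0.61, adjusted p up to 0.237). With pool and suffix as units Kcne1l did not pass (1.47, adjusted p = 0.129), and within suffix A alone Kcne1l was the 1 gene that did. Suffix A alone left 3 IN-like cells in pool 1, fewer than the planned minimum of 4.

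**Figure D4:**
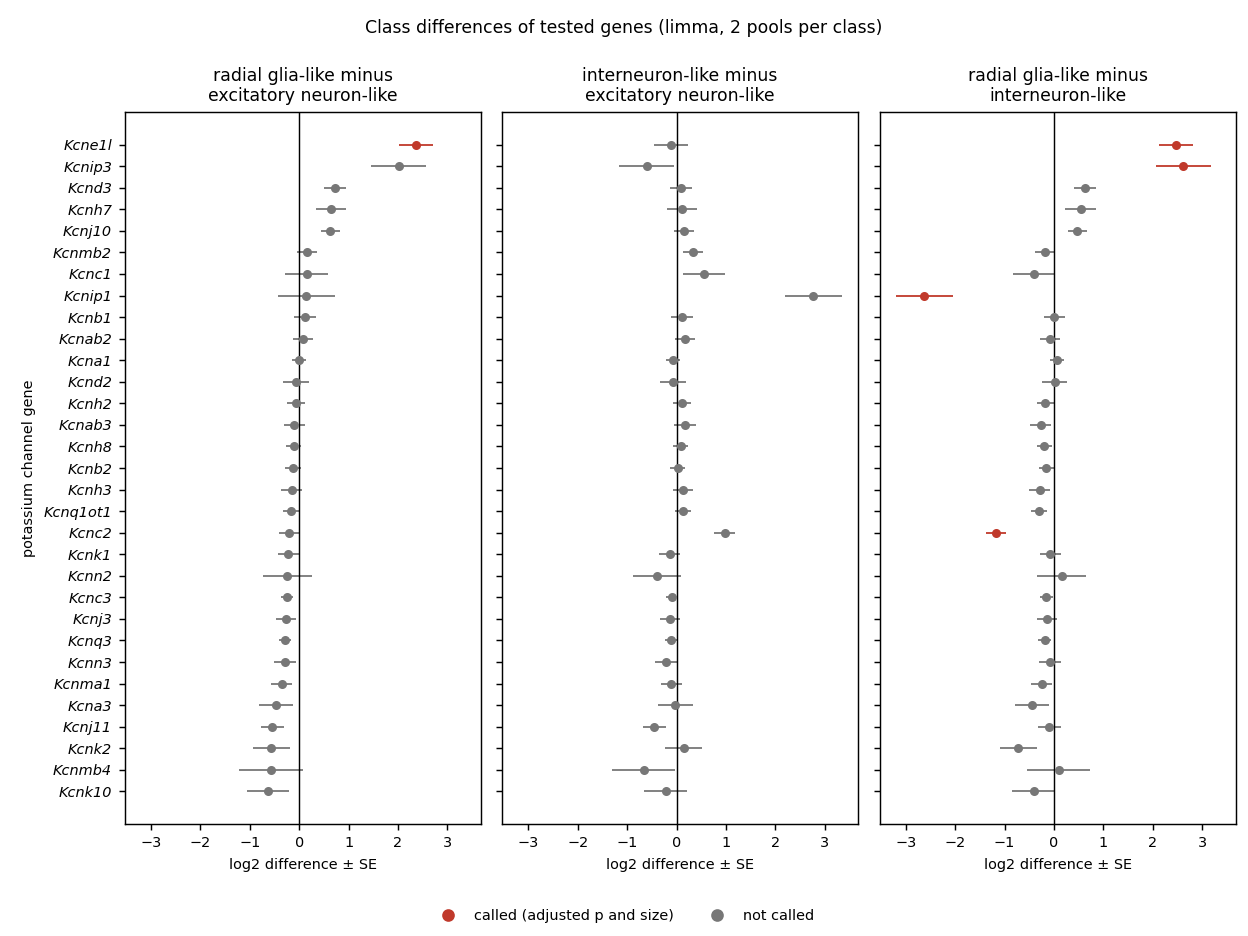
Log2 differences with their SE for tested channel genes in 3 comparisons (limma, 2 pools per class), ordered by the first; red points passed the adjusted p and size limits. Kcne1l passed in the left and right panels, Kcnip3, Kcnip1 and Kcnc2 passed in the right panel, and no gene passed in the middle one.

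No channel gene was called higher in EN-like cells in these comparisons. Kcnk2 (52.9%, 55 cells), Kcnmb4 (51), Kcnn2 (37) and Kcnk10 (36) were among the members most often above the floor there, and all 4 were also found in IN-like cells. Kcnmb4 had a median of 66.1 TPM in the EN-like cells that held it and a highest value of 245 TPM. Kcnn2 had a median of 77.5 TPM where above the floor and a highest value of 435 TPM, while Kcnk2 had a median of 4.89 TPM where above the floor. Kcnk2 was thus found in more of these cells, at a lower median TPM.

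NB-like against EN-like cells asks what changes as neurons mature. Limma called 0 of the 33 channel genes and 0.0% of all genes. An unadjusted p below 0.05 was reached by 0 channel genes and 450 genes in all. The channel genes' median log2 difference was 0.01, against 0.04 for all genes. Kcnip3 had the largest difference of the genes named here, 1.09 ± 0.56 (adjusted p = 0.999), with 42.6% of NB-like against 24.04% of EN-like cells above the floor. The order of the Kcnip3 shares over both pools was RG-like, NB-like, IP-like, EN-like and IN-like. The place of the IP-like class rests on 3 of 8 cells, and in pool 2 alone its share lay above that of NB-like cells. By pool it was above the floor in 10 of 12 and 5 of 10 RG-like cells, 14 of 31 and 6 of 16 NB-like cells and 1 of 16 and 1 of 11 IN-like cells.

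Several channels were spread over all classes. Kcnk2, a mechanosensitive K2P leak channel, was above the floor in 47.5% of the 221 cells, more than any other member, though mostly at a few TPM (median 5.84 TPM where above the floor). Its shares ran from 36.4% of RG-like to 52.9% of EN-like cells. Kcnmb4, the neuronal BK beta subunit, was above the floor in 95 cells with a median of 65.8 TPM among them, and Kcnma1, the BK pore it joins, in 24. Of the 95 cells with Kcnmb4, 11 had Kcnma1, as had 13 of the 126 without, a similar share. Kcnn2, an SK channel driven by calcium, was above the floor in 74 cells, from 2 of 8 IP-like cells to 35.6% of EN-like cells. Kcnk10 was found in 67 cells and Kcnh7 in 44. None of these, nor Kcnc1, passed in any of the 6 comparisons.

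Genes with roles next to the channels were read against the shares called over all genes given above. Of 10 tested partners of potassium channels, 0 passed between RG-like and EN-like cells (5.74% of all genes). Dpp10, a Kv4 partner, was lower in RG-like than in IN-like cells (1.69% of all genes; limma log2 difference -1.66 ± 0.35, adjusted p = 0.0133). It was above the floor in 10 of 27 IN-like and 0 of 22 RG-like cells. Dpp10 met the minimum of 10 cells only with the IN-like cells counted, so the filter was not independent of this difference. Cntn2, an adhesion protein of Kv1 clusters, was lower in IP-like than in EN-like cells (0.487% of all genes; -2.80 ± 0.57, adjusted p = 0.0340). Of 6 tested subunits of the sodium-potassium pump, 2 were higher in RG-like than in EN-like cells (4.37% of all genes) and 1 was higher than in IN-like cells (5.75% of all genes), the former including Atp1b3, a beta subunit (2.52 ± 0.59, adjusted p = 0.0253). Of 11 calcium channel genes 1 passed, the beta subunit Cacnb3, lower in RG-like than in EN-like cells (1.37% of all genes; -1.82 ± 0.49, adjusted p = 0.0464). None of 6 sodium channel and 2 HCN channel genes passed in any comparison.

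Kcnj8, the pore of the ATP-sensitive potassium channel of vessel muscle and pericytes, was below the minimum for testing, with 5 cells. It lies on the minus strand of chromosome 6 from 142564837 to 142571614. Among the 57 cells of pool 1 with suffix A, 4 had it at 108.2, 122.5, 146 and 287 TPM, and the fifth cell, in pool 2 with suffix B, had 3.23 TPM. It was at the floor in the 65 cells of pool 1 with suffix B and in the 66 cells of pool 2 with suffix A, which allow shares of up to 4.62% and 4.55%. The high values were thus found in 1 of the 4 combinations of pool and suffix. By the first letter of the cell name the 4 cells lay in A, B, C and D, 1 in each, so the letter they share is the suffix, not the first letter. Of these 4 cells, 2 were NB-like and 2 EN-like, with Neurod6 at 1093 to 3144 TPM.

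Vessel markers were counted beside Kcnj8. Of 20 listed markers of endothelium and mural cells, 9 were at the floor in every cell of the series, among them the endothelial markers Cldn5, Pecam1, Kdr, Flt1 and Cdh5 and the mural markers Anpep and Acta2. Each of the 4 high cells had at least 1 marker above the floor. The cell at 287 TPM had the mural receptor Pdgfrb, that at 146 TPM Myl9, that at 122.5 TPM Rgs5 and Higd1b, and that at 108.2 TPM Esam, Rgs5 and Myl9, with summed levels above the floor of 57.1, 219, 167 and 301 TPM. The fifth cell, with Kcnj8 at 3.23 TPM, had Vtn, with a sum of 9.27 TPM. Abcc9, Vtn, Notch3, Tagln, Egfl7 and Ramp2, above the floor in other cells, were at the floor in all 4 high cells. At least 1 vessel marker was above the floor in 50.9% of the cells of pool 1 with suffix A, against 30.8% with suffix B, and in 31.8% and 18.2% in pool 2. The part of vessel RNA in the Kcnj8 values was not tested.

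**Figure D5:**
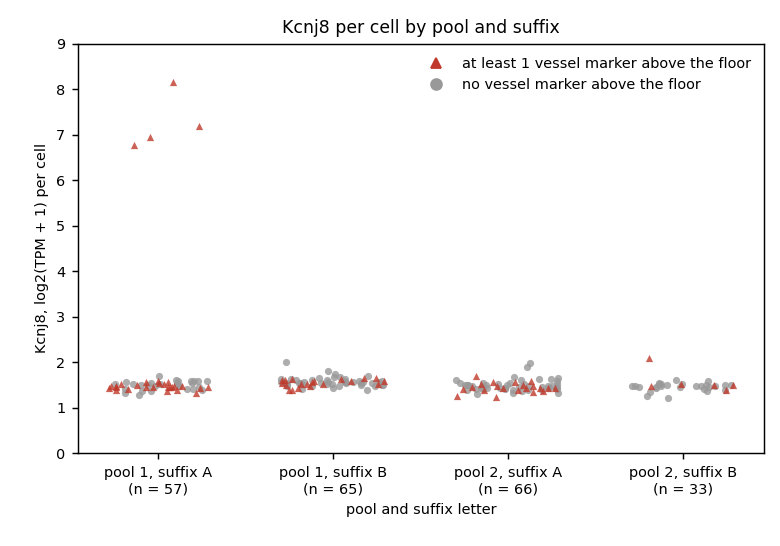
Kcnj8 as log2(TPM + 1) in every cell, by pool and suffix letter. Red triangles are cells with at least 1 of 20 vessel markers above the floor, grey circles are cells with none. The 4 high cells are all in pool 1 with suffix A and all have a vessel marker.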

How the data were processed

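The deposited table holds TPM of 221 cells, each a Fluidigm C1 capture with SMARTer v4 cDNA and Nextera XT libraries per the labels' protocols. TopHat2 2.0.14, Bowtie2 2.2.6 and Cufflinks 2.2.1 and the build mm10 are named in the submitters' processing notes. TPM of each cell, made by the authors, add up to 1000000 and carry no read depth. The precision of a value is therefore unknown, and intervals (exact, Clopper-Pearson, 95%) and limits for a share of 0 (3 counts of the cells) cover counting error only. No 2 cells held identical values. The pools share 59 well and suffix names, but each cell is a sample of its own.

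The channel genes, gene lists and markers were chosen with earlier results of these data known. Named with values were called members, the 5 most frequent members of each main class, members in at least 50% of a class, and Kcnj8. Of other lists up to 4 genes per comparison were named. Results of some of these genes are not reported here, although the counts include them.

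Cells were grouped by Ward linkage on 10 principal components of 86 standardized markers (105 listed, 102 in the table) into 10 clusters. A cluster took a class name if at least 3 of that class's markers were above the floor in 50% of its cells and its 10 leading genes held no more markers of another class. This rule was chosen once the clusters were known. A cluster of 12 cells led by globin genes, all in pool 2 with suffix B, and 1 cell with microglia markers took no name.

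Mean log2(TPM + 1) per class and pool was tested by limma 3.58.1 in R 4.3.3 (lmFit, eBayes with trend and robust), two-sided, with Benjamini-Hochberg adjustment over 10688 genes detected in 10 or more cells, markers left out. Classes needed 4 cells per pool (4 residual degrees of freedom). IP-like cells, for which the planned minimum left no value, were compared with a minimum of 3 (5 degrees of freedom). The comparison of NB-like cells was added after the clusters were seen. Pools were treated as replicates of each class. Classes of a pool come from the same embryos, so the pool pairs them by design. Their deviations correlated by -0.02 to 0.05 across genes. In all, 16 planned and 6 added alternatives were tried. Promoters and positions came from RefSeq (GRCm38.p6) and GENCODE (GRCm38), the assembly also called mm10. The fit was run on simulated data for the comparison of RG-like with EN-like cells only. The simulation had no floor, suffix or shared pool effect, so it does not test how the fit handles these.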

Additional observations from a re-analysis of the deposited data

Results flagged for a closer look

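Kcne1l in the 8 IP-like cells had 1 cell far from the others. The lowest cell, in pool 2 with suffix A, had 7.04 TPM, and the next had 111.2 TPM. The gap between these was 0.677 of the whole range on the log2 scale, above the 95% critical value of Dixon for 8 samples. The mean log2 level of the 8 cells was 6.93, and 7.49 without this cell. Chance marks about 1 in 20 such groups. For Kcnk10, the only other channel gene so checked, the gap was 0.0102 of the range.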

How the results depend on the processing

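Tests had 2 pools per class, and the class of a cell rests on its markers. The count of called channel genes between RG-like and EN-like cells (1) was 2 with the pool as a replicate block, with profiles weighted by cells, with values at the floor set to 0, with clusters from the 1000 most variable genes, with both progenitor classes joined and without progenitor and IN-like cells in which Neurod6 reached 100 TPM. It was 0 with the log2 of the mean, with the highest marker score, within suffix A and with a minimum of 3 cells. Between IN-like and EN-like cells (0) it was 2 with quantile normalization, and 1 with log2(TPM + 10), with variable-gene clusters, with the highest score, with progenitors joined, with pool and suffix as units, with weights and without EN-like cells of suffix B. Between RG-like and IN-like cells (5) it was 3 with variable-gene clusters, with pool and suffix as units and with 3 cells, 2 with the log2 of the mean and with the highest score, and 1 within suffix A. Against EN-like cells, IP-like cells (1) had 2 with the log2 of the mean and 0 with the highest score. Against RG-like cells (1) the count was 0 with quantile normalization, the log2 of the mean, the highest score, the pool as a block, weights and without globin cells, and Kcne1l turned to -0.27 with the highest score. The causes were not tested. These comparisons had no value with variable-gene clusters, with progenitors joined, without Neurod6 cells or within suffix A. With 8 or 12 clusters the classes and counts were those reported. The pool block changed no other call.

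Calls over all genes ranged from 33 to 839 (613 as reported) between RG-like and EN-like cells, 5 to 167 (62) for IN-like against EN-like, 162 to 1709 (796) for RG-like against IN-like, 0 to 298 (232) and 0 to 150 (54) for IP-like against EN-like and RG-like cells, and 0 to 53 (0) for NB-like cells. Of the calls over all genes between RG-like and EN-like cells 76.2% were higher, and 62.4% with the log2 of the mean. The same share was 77.3% between RG-like and IN-like cells (57.8% with quantile normalization, 57.6% with the log2 of the mean), 77.6% between IP-like and EN-like cells (49.8% and 36.5%), 35.2% between IP-like and RG-like cells (12.5% with the log2 of the mean), with 31 of 62 between IN-like and EN-like cells (61.3% with quantile normalization, 22 of 100 calls with variable-gene clusters, 38.9% with weights and 72.9% without the Npas1 cluster). With the log2 of the mean the median difference of all genes moved from 0.02 to -0.14, 0.08 to -0.06, 0.09 to -0.28 and 0.03 to -0.13 in the first 4 of these comparisons, and with quantile normalization from 0.08 to -0.04 between RG-like and IN-like cells. The unknown read depth limits all of these values.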

Other observations

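The 12 cells of the unnamed cluster led by globin genes were all in pool 2 with suffix B. They had 28 channel genes above the floor in at least 1 cell, led by Kcnmb4 in 5 of 12 cells (highest 413 TPM), Kcnk2 in 4 (166 TPM) and Kcnn2 in 4 (223 TPM). Kcna3 and Kcnip1 followed with 3 each (160 and 334 TPM), Kcnip3 was above the floor in 1 cell, and Kcnc2 in 1 at 5.53 TPM. The single cell with microglia markers had 9 channel genes above the floor, among them Kcnip3 at 50.02 TPM.

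KChIP proteins act on Kv4 pores. Of the 221 cells 22 had Kcnd2 and 19 had Kcnd3. Of 71 cells with Kcnip1, 6 had Kcnd2 and 8 had Kcnd3, against 16 and 11 of the 150 cells without it. Of 67 cells with Kcnip3, 9 had Kcnd2 and 8 had Kcnd3, against 13 and 11 of 154 without. In RG-like cells Kcnd3 was above the floor in 3 of 15 cells with Kcnip3 and in 3 of 7 without. These counts have no test, and a pore at the floor may have been missed.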
